A study of Mus musculus with 29 samples.

Results

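The comparison described here is that of mouse keratinocyte cultures kept in doxycycline (Dox) for 72 h with cultures kept in Dox for 24 h, that is, the late change under Dox. Its members were chosen by their titles alone: 4 arrays labelled Dox 72 h and 3 arrays labelled Dox 24 h, 7 of the 29 arrays of the study. At 72 h 2 arrays carry the same letter, C, and were averaged, which left 3 replicates at each time, 6 of 27.

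All cultures were primary keratinocytes from the tail skin of C57BL/6 mice that carry a c-Fos transgene switched on by doxycycline (c-FostetON), grown at 32 °C in KC-SFM, a serum-free keratinocyte medium that was changed every other day. The treatment label has Dox at 1 µg/ml and the growth label at 1 µg/L, and the sources do not settle which unit is right. The untreated cultures used beside them carry the same transgene and were kept for 24 h (3 arrays) and 72 h (4 arrays, 3 replicates) without Dox. The labels do not give the number or age of the animals, the promoter that drives the transgene or whether replicates came from separate cultures. No culture without the transgene was analysed here, so the drug's own effect and that of c-Fos cannot be told apart. Total RNA was measured on Illumina bead arrays, and every value below is a background-corrected, quantile-normalised intensity on the log2 scale, so that a difference of 1 is a 2-fold difference.

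c-Fos is a subunit of AP-1, a family of dimers of Fos, Jun and ATF proteins that bind a short DNA element and pass growth factor, stress and wound signals to genes. In epidermis AP-1 dimers act on proteases, on proteins of the cornified envelope and on inflammatory mediators. Keratinocytes leaving the basal layer switch on early differentiation genes and then the genes of the cornified layer, among them the small proline-rich proteins, the late cornified envelope proteins, and the kallikrein proteases that later cut the junctions between dead cells.

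The median signal before normalisation was 54.6 to 64.1 on the 24 h arrays and 68.9 to 74.5 on the 72 h arrays, and 34.0 to 35.3% against 36.8 to 37.6% of the 25697 probes were detected. Arrays of 1 time correlated more closely (r of 0.989 to 0.991 at 24 h and 0.991 to 0.994 at 72 h) than arrays of different times (0.980 to 0.983). Distributions of the authors' values place the 29 arrays in 4 processing sets: Dox 24 h replicate 1 lies in 1 set, Dox 24 h replicates 2 and 3 share another with the 48 h cultures, and every 72 h array is in a set of its own time. No set holds both Dox 24 h and Dox 72 h, so the effect of time cannot be told apart from that of the set. The nearest value within 1 set, Dox 48 h (2 arrays) minus Dox 24 h (replicates 2 and 3), is given beside some of the genes below as a value without a test. Basal keratinocyte genes gave strong signals throughout, Krt14 at 14.33 and 14.39 and Krt5 at 13.22 and 13.19 at 24 h and 72 h, and Trp63, the transcription factor of basal epidermis, at 11.71 and 11.82.

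Of 8271 genes measured, 1225 (14.8%) differed between 72 h and 24 h of Dox at an adjusted p below 0.05 in the limma fit over all groups, with Benjamini-Hochberg adjustment. Of these, 607 genes (7.34%) were higher and 618 (7.47%) lower at 72 h. Only 105 genes (1.27%) also differed at least 2-fold, 44 of them higher and 61 lower. The 4 arrays of 72 h lay wholly above or below the 3 arrays of 24 h for 2316 genes (28%), which include 1150 of the called genes. The split into higher and lower depends on how the arrays are scaled: 49.6% of the calls were higher after quantile normalisation, 92.2% of 2149 calls after scaling each array to the median of all probes, which shifts the median gene by 0.22, 90.7% of 2586 calls on the authors' own values, which shifts it by 0.09, and 36.2% of 1483 calls after scaling to the median of the kept probes. The 30 leading genes described below kept their direction and passed the test under all 23 alternatives, although their size under these alternatives was between 0.199 (the authors' values centred over the kept probes) and 1.25 times that given here (median scaling). They were picked as the largest changes of these same data, so this is no independent check. The 2-fold minimum could not drop any of them, and the filter on detection throughout 1 group repeats the rule that named them. In a culture, fewer cells of a type and less RNA per cell cannot be told apart.

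No difference in Fos itself was detected between the times. Its probe read 5.83, 5.74 and 6.07 on the 24 h arrays and 5.58, 6.16, 6.04 and 5.92 on the 72 h arrays (mean 5.88 ± 0.17 SD against 5.91 ± 0.30, n = 3), a difference of 0.03 with a standard error (SE) of 0.16 and an adjusted p of 0.937. The groups overlap, and both lie below the untreated cultures, whose means were 6.64 at 24 h and 6.69 at 72 h. The probe is thus lower on the arrays labelled Dox than on those without it. Whether the probe can see the transgene is unknown. Its values therefore do not check the labels, and they show neither that the transgene was induced nor that it was not. For this reason "Dox" below means an array labelled Dox.

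Of 12 genes for AP-1 subunits 7 were measured, of which 2 fell and 1 rose at 72 h. Jun, the main partner of c-Fos, read 6.09, 5.74 and 6.15 at 24 h and 5.24, 5.06, 5.23 and 4.93 at 72 h, and fell by 0.87 (SE 0.12, adjusted p = 1.07e-05) with no overlap. Atf3, a stress-induced subunit, fell by 0.72 (adjusted p = 1.2e-04), a call lost on the authors' values (-0.16, 0.0512). Jdp2, a repressor of AP-1, was not detected on any 24 h array and was at least 1.05-fold higher at 72 h, at means of 4.45 and 4.96 (adjusted p = 0.0141). Its call was lost without Dox 24 h replicate 1 (0.45, adjusted p = 0.0592), without Dox 72 h replicate 3 (0.48, 0.0527) and under 3 of 5 other scalings. Fosl1 and Junb, other AP-1 subunits of keratinocytes, differed by -0.31 and -0.30 (adjusted p = 0.0759 and 0.163), and Jund by 0.21 (adjusted p = 0.346). The median of the 7 was -0.30 against -0.0026 over all genes, and it became 0.02 under median scaling and 0.07 on the authors' values.

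Among 9 measured immediate-early genes outside AP-1, which cells switch on within minutes of a stimulus, 3 fell and 1 rose. Zfp36, which destabilises inflammatory mRNAs, read 9.23, 9.32 and 9.41 at 24 h and 8.46, 8.20, 8.51 and 8.63 at 72 h, a fall of 0.91 (SE 0.11, adjusted p = 1.38e-06). Egr2, a zinc finger transcription factor, fell by 0.86 (adjusted p = 1.25e-05). These are the members whose fall passed without each replicate in turn and under all 5 other scalings. The untreated cultures gave changes of -0.85 for Zfp36 and -0.41 for Egr2 between the same times. Dusp1, a phosphatase that switches MAP kinases off, fell by 1.04 (SE 0.13, adjusted p = 2.72e-06) from 8.14, 8.24 and 8.40 to 7.18, 7.10, 7.41 and 7.40. It stands among 10 measured genes for EGF receptors, their ligands and their feedback, of which 3 fell and none rose, with a median of -0.16 that turned to 0.09 under median scaling. The other falls in that list were those of Phlda1 (-0.61) and Errfi1 (-0.46), both induced by growth factor signals, and each passed under only 2 of the 5 other scalings.

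The promoters of the called genes were read for the AP-1 element, since c-Fos was the factor manipulated. RefSeq promoters on GRCm38.p6 were found for 6749 of the 8271 genes, and the 250 bases before the start site were searched for TGACTCA on both strands, of which TGAGTCA is the reverse complement. A match was present in 308 genes (4.56%). Among genes that fell, 40 of 492 (8.13%) held it, and among genes that rose, 16 of 509 (3.14%). Among genes that fell at least 2-fold it was 10 of 47 (21.3%), and among those that rose at least 2-fold 3 of 38 (7.89%). These shares are descriptions, no test of them was made, and a match is not evidence of binding.

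The stretches around the match are shown for genes that changed and that this text describes, read 5′ to 3′ on the strand of the gene with 1 match of each in capitals. The first 9 belong to genes that fell, and the last 3 to genes that rose.
Mmp13: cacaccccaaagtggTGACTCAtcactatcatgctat
Mmp10: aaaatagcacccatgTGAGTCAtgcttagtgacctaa
Psg18: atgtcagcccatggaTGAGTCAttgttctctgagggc
Sprr2f: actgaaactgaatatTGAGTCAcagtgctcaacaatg
Sprr2d: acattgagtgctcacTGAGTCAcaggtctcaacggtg
Sprr1a: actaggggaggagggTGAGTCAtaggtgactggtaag
Plaur: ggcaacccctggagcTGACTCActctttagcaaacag
Krtdap: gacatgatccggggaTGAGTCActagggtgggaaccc
Ccl27a: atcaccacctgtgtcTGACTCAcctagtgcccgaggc
Fas: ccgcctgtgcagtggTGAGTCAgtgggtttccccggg
Mgst2: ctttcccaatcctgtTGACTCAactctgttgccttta
Sprr2k: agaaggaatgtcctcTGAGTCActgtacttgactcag

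The Mmp13 stretch is chr9:7272464-7272500 on the plus strand, and its match begins 35 bases before the start site. That of Mmp10 is chr9:7502264-7502300, plus strand, 63 bases before. That of Psg18 is chr7:18355093-18355129, minus strand, 107 bases before. The 3 Sprr2 stretches lie on the plus strand of chromosome 3, Sprr2f at chr3:92364975-92365011, Sprr2d at chr3:92338932-92338968 and Sprr2k at chr3:92432371-92432407, and their matches begin 197, 193 and 196 bases before the start site. The element thus stands at nearly the same distance in Sprr2d and Sprr2f, which fell, and in Sprr2k, which rose. Sprr1a, chr3:92485976-92486012 on the minus strand, holds the match 116 bases before the start and another one 146 bases before it. Sprr2k likewise holds another match 182 bases before the start, which stands in lower case in the stretch shown. Ccl27a is at chr4:41770268-41770304 (minus, 77 bases before). Plaur is at chr7:24462399-24462435 (plus, 69 bases before), Krtdap at chr7:30787809-30787845 (plus, 81 bases before), Fas at chr19:34290433-34290469 (plus, 211 bases before) and Mgst2 at chr3:51661112-51661148 (plus, 52 bases before).

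Secreted proteases of the kallikrein family fell, and Klk6 led them. Klk6, a trypsin-like serine protease, read 10.28, 10.32 and 10.39 on the 24 h arrays and 8.07, 7.92, 7.67 and 7.76 on the 72 h arrays. It was 5.39-fold lower at 72 h, a change of -2.43 (SE 0.11, adjusted p = 8.71e-14), the largest fall of the 618 called, and Dox 48 h minus Dox 24 h within 1 set was already -1.69. Klk7, the chymotrypsin-like protease of desquamation, read 10.17, 10.60 and 10.73 against 8.73, 8.55, 9.06 and 9.11, a fall of 1.71 (adjusted p = 2.78e-09). Klk5, the trypsin-like protease that activates Klk7, read 6.63, 6.69 and 6.87 against 5.11, 5.38, 4.94 and 5.18, a fall of 1.55 (adjusted p = 5.4e-08). None of the 3 genes overlapped between the times, which was a condition for naming them among the largest falls and held for 28% of all genes. Of the 9 kallikreins and inhibitors measured 7 fell and 1 rose, with a median of -0.71. The falls include that of an inhibitor, Serpinb2 (-0.39, adjusted p = 0.00866), which is counted again under plasminogen activation below. The falls of Klk8 (-0.72), Klk10 (-0.71) and Klk11 (-0.67) passed without any 1 of the 6 replicates but not under every scaling, and Klk13 differed by -0.26 (adjusted p = 0.151). The member that rose was Slpi, a secreted inhibitor of serine proteases, from 8.63, 8.73 and 8.70 to 9.76, 9.41, 9.71 and 9.75 (0.95, SE 0.11, adjusted p = 5.26e-07), while its Dox 48 h minus Dox 24 h within 1 set was -0.03. The kallikrein genes, like the Sprr2, defensin and Psg genes below, have close paralogues, and cross-hybridisation of their probes was not tested.

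Among 10 matrix metalloproteinases and their inhibitors, 4 proteases fell and 2 inhibitors rose. Mmp13, a collagenase with the AP-1 element shown above, read 6.65, 6.63 and 6.57 at 24 h and 4.95, 4.64, 4.86 and 4.91 at 72 h, a 3.48-fold fall (-1.80, SE 0.15, adjusted p = 4.57e-09). Mmp10, a stromelysin induced by AP-1, read 8.99, 8.81 and 8.83 against 7.81, 7.38, 7.55 and 7.62 and fell by 1.29 (SE 0.15, adjusted p = 5.42e-07). Mmp9, a gelatinase, was not detected on any 72 h array and was at least 1.33-fold lower there (means 5.17 and 4.53, adjusted p = 2.93e-04). The bound compares the mean of the detected group with the lowest detected signal of the arrays of the other, or with the gene's own signal where that is higher. Timp1 and Timp2, inhibitors of these enzymes, rose by 0.96 and 0.85 (adjusted p = 1.62e-05 and 2.16e-05), and no array of either overlapped between the times. These 3 falls and 2 rises passed without each replicate and under all 5 other scalings, and the other fall, that of the stromelysin Mmp3 (-0.62, adjusted p = 0.0169), did not. Mmp14, a membrane-anchored metalloproteinase, differed by 0.11 (adjusted p = 0.777). The untreated changes were of similar size, -1.37 for Mmp13, -1.21 for Mmp10 and 0.85 for Timp1.

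The genes of the cornified layer did not move as 1 block. Asprv1, the aspartic protease that processes filaggrin, read 10.73, 10.97 and 11.27 at 24 h and 9.07, 8.55, 9.02 and 9.03 at 72 h, a 4.31-fold fall (-2.11, SE 0.15, adjusted p = 3.4e-10). Cnfn, a cornified envelope protein, read 11.14, 11.06 and 11.14 against 9.53, 9.49, 9.81 and 9.68, a fall of 1.53 (adjusted p = 1.77e-10). The late cornified envelope genes Lce1m and Lce3c fell by 1.45 and 1.12 (adjusted p = 1.19e-08 and 1.55e-06). These 4 falls passed without each replicate and under all 5 other scalings. Of 16 measured cornified envelope genes 6 fell and 2 rose (median -0.14, which became 0.11 under median scaling and 0.01 on the authors' values). Loricrin (Lor) and involucrin (Ivl), major envelope components, differed by 0.16 and 0.37 (adjusted p = 0.577 and 0.225). Lce1c, of the same late cornified envelope family, differed by 0.69 in the opposite direction (adjusted p = 0.00523), and its call held in 5 of 6 fits without 1 replicate and under 4 of 5 other scalings.

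Of 10 small proline-rich proteins, the cross-linked bridges of the envelope, 5 fell and 1 rose. Sprr2f read 7.36, 7.46 and 7.63 at 24 h and 5.76, 5.78, 6.15 and 6.10 at 72 h (-1.60, SE 0.16, adjusted p = 7.79e-08). Sprr2d read 12.27, 12.20 and 12.31 against 10.96, 10.71, 11.16 and 11.20 (-1.30, adjusted p = 2.33e-09). Sprr1a fell by 1.08 (adjusted p = 8.11e-07). Each of the 3 holds the AP-1 element shown above and was separated between the times. Separation was a condition for naming Sprr2f among the largest falls, and 28% of all genes were separated. Sprr2k went the other way, from 7.35, 7.67 and 7.38 to 8.46, 8.67, 8.28 and 8.23 (0.99, adjusted p = 2.89e-05). Sprr2g (-0.87) and Sprr2e (-0.68) were also lower, their calls passing without each replicate but under 4 and 2 of the 5 other scalings.

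Of 11 genes of early differentiation 4 fell and 1 rose, but only the fall of Ovol1 passed without each replicate and under every scaling. Ovol1, a transcription factor that drives keratinocytes out of the cell cycle, read 7.74, 7.62 and 7.63 at 24 h and 6.49, 6.28, 6.37 and 6.20 at 72 h (-1.31, SE 0.11, adjusted p = 4.97e-09). Krtdap, a secreted protein of the spinous layer, fell by 0.89 (adjusted p = 9.41e-04), a call lost on the authors' values (-0.39, 0.0809). Krt10, the keratin of spinous cells, stood at 8.07 and 7.69 (-0.37, adjusted p = 0.0169), and this call was lost without Dox 24 h replicate 1 (-0.33, adjusted p = 0.0707), Dox 24 h replicate 2 (-0.34, 0.0699) or Dox 72 h replicate 1 (-0.34, 0.0716), and the sign turned on the authors' values (0.03). Of 17 lipid barrier genes 6 fell and 2 rose. Aloxe3, a lipoxygenase of the epidermal barrier, fell by 0.89 (adjusted p = 7.17e-06) and Ugcg, glucosylceramide synthase, by 0.78 (adjusted p = 7.2e-06), though the call of Ugcg was lost on the authors' values (-0.33, 0.0521). Scd2 and Fads2, which introduce double bonds into fatty acids, rose. Scd2 read 5.29, 6.05 and 5.54 against 6.59, 6.73, 6.99 and 6.95 (1.13, adjusted p = 1.12e-04), and Fads2 was undetected at 24 h and at least 1.79-fold higher at 72 h (means 4.44 and 5.73, adjusted p = 4.83e-09). The mean of Fads2 on the Dox 48 h arrays was 4.68, near that at 24 h.

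Of 13 measured genes of the basal layer none rose and 1 fell, Lamb3, a laminin chain of the basement membrane (-0.41, adjusted p = 0.0382). The call held only without Dox 72 h replicate 1, was lost without each of the other replicates (-0.42 to -0.37, adjusted p = 0.075 to 0.13), and its sign turned on the authors' values (0.01). Col17a1 and Itgb4, hemidesmosome proteins, differed by 0.17 and -0.17 (adjusted p = 0.396 and 0.307). The list's median of -0.03 lies beside that of all genes. Krt16 and Krt6a, keratins of wounded epidermis, differed by -0.02 and 0.35 (adjusted p = 0.92 and 0.369). Krt18, a keratin of simple epithelia, was undetected at 72 h and at least 1.36-fold lower there (means 5.20 and 4.50, adjusted p = 8.26e-04).

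**Figure D1:**
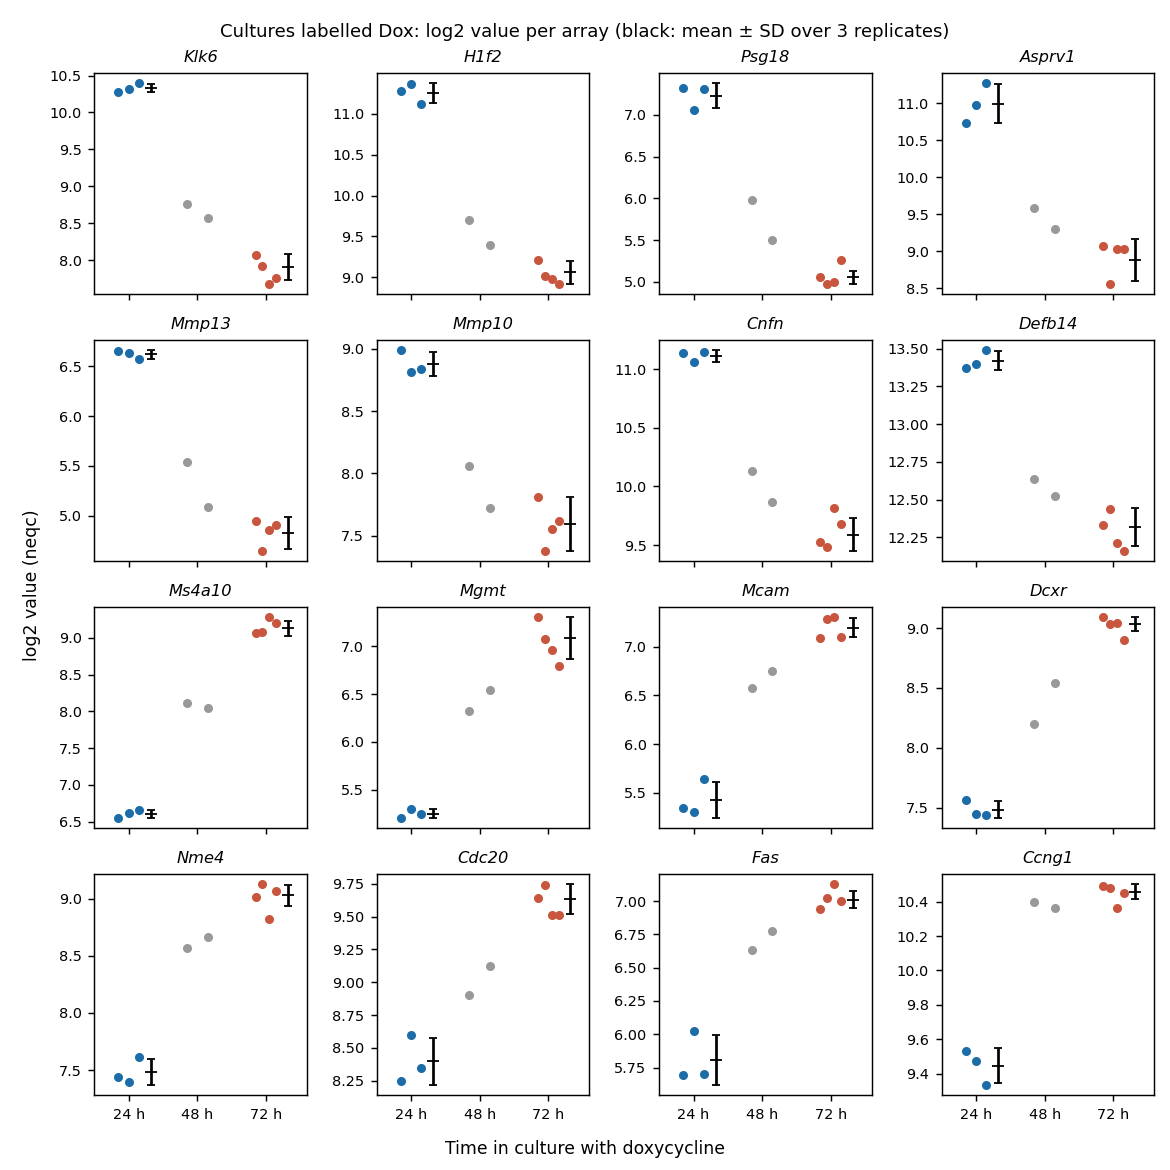
Normalised log2 intensity of 16 genes on each array with Dox at 24 h (3 arrays, blue), 48 h (2 arrays, grey) and 72 h (4 arrays, red), with the mean and SD over 3 replicates in black for 24 h and 72 h. Klk6 lies between 10.28 and 10.39 at 24 h and between 7.67 and 8.07 at 72 h, and in each of the 16 genes the 24 h and 72 h arrays are separate. Separation was a condition for naming the largest rises and falls, and 28% of all genes were separate.

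Beta-defensins, antimicrobial peptides of epithelia, were lower at 72 h. Defb14 read 13.37, 13.40 and 13.49 at 24 h and 12.33, 12.44, 12.21 and 12.16 at 72 h (-1.10, SE 0.10, adjusted p = 8.14e-09). Defb4 and Defb6, of the same family, fell by 1.30 and 1.41 (adjusted p = 4.49e-08 and 6.36e-08), Defb4 from 6.43, 6.42 and 6.61 to 5.38, 5.22, 5.03 and 4.88. Chil1, a chitinase-like protein, was undetected at 72 h and at least 1.51-fold lower (adjusted p = 1.13e-04). Of the 9 measured genes of the list 4 fell and 2 rose, the latter being Slpi and Rnase4, an RNase secreted at epithelia (0.58, adjusted p = 0.00224). Defb1 differed by -0.27 (adjusted p = 0.137). All 6 calls of the list passed without each replicate and under all 5 other scalings.

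Of 12 S100 calcium-binding proteins 4 fell and none rose. S100a8, a subunit of calprotectin, read 10.88, 10.93 and 10.98 against 9.63, 9.95, 9.64 and 9.50 (-1.21, SE 0.13, adjusted p = 1.59e-07). S100a7a, mouse psoriasin, read 9.45, 9.30 and 9.57 against 8.54, 8.58, 8.54 and 8.30 (-0.93, SE 0.11, adjusted p = 1.66e-06). S100a9, the calprotectin partner of S100a8, differed by -0.34 (adjusted p = 0.164). The falls of S100a16 (-0.54) and S100a14 (-0.53) passed under only 2 of the 5 other scalings, and the median of the list, -0.14, became 0.17 under median scaling and 0.10 on the authors' values.

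Of 7 chemokines 4 fell and 1 rose, and of 12 epidermal cytokines 3 fell and none rose. Cxcl12, the ligand of Cxcr4, read 6.74, 6.76 and 6.94 at 24 h and 6.09, 5.64, 5.81 and 5.79 at 72 h (-0.97, SE 0.13, adjusted p = 9.63e-06), while its dimmer probes differed by -0.18 and 0.29 (adjusted p = 0.477 and 0.172) and its call was lost on the authors' values (-0.26, 0.055). Cxcl1, a neutrophil attractant, fell by 0.52 (adjusted p = 7.77e-04) and Ccl27a, a skin T cell attractant, by 0.46 (adjusted p = 0.00544). Both passed without each replicate but under only 2 of the 5 other scalings. Tslp, an epithelial cytokine of allergic inflammation, read 5.51, 5.91 and 5.89 against 4.72, 4.61, 4.69 and 4.96 (-1.05, SE 0.18, adjusted p = 1.51e-04), and Il23a, an interleukin subunit, fell by 0.51 (adjusted p = 0.00378), a call lost under median scaling (-0.33, 0.0777).

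Plasminogen activation was represented by 3 measured genes, and all 3 fell, though none of these calls passed under all 5 other scalings. Plaur, the urokinase receptor, fell by 0.57 (adjusted p = 0.00191), which did not pass under median scaling (-0.25, 0.262) or on the authors' values (-0.10, 0.289). Serpinb2, an inhibitor of plasminogen activators, fell by 0.39 (adjusted p = 0.00866), its sign turning on the authors' values (0.02). Plau, urokinase itself, read 8.31, 8.47 and 8.47 at 24 h and 7.40, 7.64, 7.91 and 7.97 at 72 h (-0.76, adjusted p = 0.00969). Without Dox 72 h replicate 1 its change was -0.63 with an adjusted p of 0.0647, and it did not pass under median scaling (-0.41, 0.107) or on the authors' values (-0.21, 0.295).

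**Figure D2:**
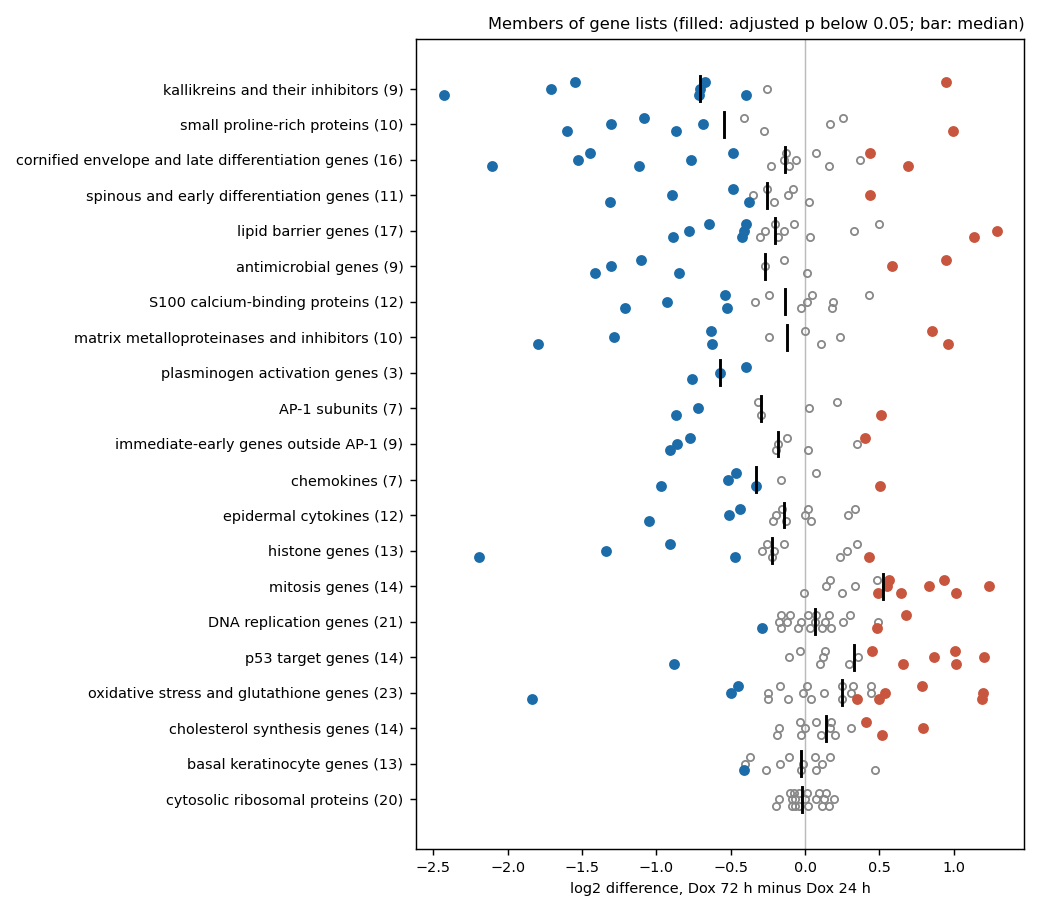
Difference between Dox 72 h and Dox 24 h on the log2 scale for the measured members of 21 gene lists, 1 point per gene, filled where the gene passed the test and with a bar at the median of each list. The kallikreins lie mostly below 0 and the mitosis genes above it. Under median scaling the signs of the medians turn for the S100, cornified envelope, AP-1, immediate-early, cytokine, metalloproteinase, histone, basal and ribosomal lists.

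Among the largest falls were 2 pregnancy-specific glycoproteins, members of the carcinoembryonic antigen family. Psg18 read 7.33, 7.06 and 7.31 at 24 h and 5.06, 4.97, 5.00 and 5.26 at 72 h (-2.17, SE 0.14, adjusted p = 3.88e-11), and its other probe fell by 2.43. Psg26 fell by 1.73 (adjusted p = 4.18e-10). Itga2, the collagen-binding integrin alpha chain, read 6.71, 6.85 and 6.70 against 4.93, 4.81, 5.33 and 4.96 (-1.79, SE 0.16, adjusted p = 1.14e-08), and untreated cultures changed by -0.77. Calm5, a calmodulin-like protein, was undetected at 72 h and at least 2.87-fold lower (means 6.28 and 4.58, adjusted p = 1.1e-10). Hs3st1, a heparan sulphate sulphotransferase, was likewise undetected at 72 h and at least 2.80-fold lower (means 6.24 and 4.67, adjusted p = 1.63e-10).

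Of 13 histone genes 4 fell and 1 rose. H1f2, a linker histone, read 11.28, 11.36 and 11.12 at 24 h and 9.21, 9.02, 8.98 and 8.91 at 72 h (-2.19, SE 0.13, adjusted p = 4.94e-12), a 4.58-fold fall. H2ac18, a core histone of the H2A class, fell by 1.34 (adjusted p = 8.77e-08), from 6.99, 6.51 and 6.67 to 5.54, 5.25, 5.35 and 5.38. These 2 falls passed without each replicate and under all 5 other scalings. The median of the list, -0.22, became 0.01 under median scaling and 0.02 on the authors' values.

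Many genes of mitosis rose. Of 14 measured members 8 rose and none fell, and all 8 passed without each replicate and under all 5 other scalings. Cdc20, the activator of the anaphase-promoting complex, read 8.25, 8.60 and 8.35 at 24 h and 9.64, 9.74, 9.51 and 9.51 at 72 h (1.24, SE 0.11, adjusted p = 1.02e-08). Nusap1, a spindle protein, rose by 1.02, Cenpa, the centromeric histone, by 0.93 and Plk1, a mitotic kinase, by 0.83 (adjusted p = 5.1e-06, 2.11e-06 and 6.07e-05). Cdk1, the kinase that starts mitosis, rose by 0.64 and Aurka, a spindle pole kinase, by 0.56 (adjusted p = 8.44e-05 and 2.63e-04). The median of the list was 0.52, against 0.69 in untreated cultures. Of 21 genes of DNA replication 2 rose and 1 fell after quantile normalisation, and none of these 3 calls passed without each replicate. Under median scaling 8 of the 21 were called higher, on the authors' values 10 and after these were centred 10. Of all 8271 genes 1981, 2345 and 1697 were called higher under these settings. Top2a differed by 0.48 (adjusted p = 0.102) and Cdkn1a, an inhibitor of cyclin-dependent kinases that is also a p53 target, by 0.12 (adjusted p = 0.557).

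Of 14 measured targets of p53, the transcription factor of the DNA damage response, 6 rose and 1 fell. Fas, a death receptor, read 5.70, 6.03 and 5.70 at 24 h and 6.94, 7.02, 7.13 and 7.0 at 72 h (1.20, SE 0.11, adjusted p = 1.26e-08). Ccng1, cyclin G, read 9.53, 9.48 and 9.34 against 10.49, 10.48, 10.36 and 10.45 (1.01, SE 0.10, adjusted p = 7.96e-08). Trp53inp1, a p53-induced nuclear protein, rose by 1.02 and Zmat3, an RNA-binding protein, by 0.86 (adjusted p = 4.19e-07 and 2.72e-06). Phlda3, an inhibitor of Akt, rose by 0.66 (adjusted p = 3.81e-04). These 5 rises passed without each replicate and under all 5 other scalings. The member that fell was Pmaip1 (Noxa), which promotes apoptosis, from 6.52, 6.42 and 6.64 to 6.00, 5.43, 5.51 and 5.51 (-0.88, adjusted p = 7.77e-05).

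Of 23 oxidative stress and glutathione genes 6 rose and 3 fell. Gstm2, a glutathione transferase, read 7.76, 8.0 and 7.79 against 8.94, 9.07, 9.17 and 9.08 (1.19, SE 0.12, adjusted p = 6.03e-08). Mgst2, a membrane-bound glutathione transferase, rose by 1.19 and Gsto1 by 0.78 (adjusted p = 4.11e-07 and 1.94e-04). Hmox1, haem oxygenase, read 6.04, 5.95 and 6.24 at 24 h and 4.22, 4.22, 4.34 and 4.22 at 72 h, where it was detected on no array, and was at least 2.50-fold lower (adjusted p = 1.55e-06). Its Dox 48 h minus Dox 24 h within 1 set was -1.75. Of 14 genes of cholesterol synthesis 3 rose and none fell, Lss by 0.79, Mvd by 0.52 and Fdps by 0.41 (adjusted p = 1.45e-04, 6.85e-04 and 0.00603), which encode lanosterol synthase and enzymes of the mevalonate pathway. Of 23 genes of the integrated stress response 4 rose and 1 fell, and the rises of Phgdh, which starts serine synthesis (1.14), and Ddit4, an inhibitor of mTORC1 (0.81), passed without each replicate and under all 5 other scalings.

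The largest rise was that of Ms4a10, a member of the MS4A family of membrane proteins, from 6.55, 6.61 and 6.66 to 9.06, 9.08, 9.28 and 9.20, which is 5.75-fold (2.52, SE 0.12, adjusted p = 8.71e-14). Its Dox 48 h value stood 1.45 above the 24 h arrays of its set. Mgmt, which repairs alkylated guanine in DNA, read 5.21, 5.30 and 5.24 against 7.31, 7.08, 6.96 and 6.79 (1.84, SE 0.17, adjusted p = 2.18e-08). Mcam, an adhesion molecule of the immunoglobulin family, read 5.34, 5.30 and 5.64 against 7.09, 7.29, 7.30 and 7.10 (1.77, adjusted p = 4.18e-10). Each was separated between the times, a condition for naming the largest rises, and by over 1 log2 unit. Dcxr, a carbonyl reductase, and Nme4, a mitochondrial nucleoside diphosphate kinase, rose by 1.55 each (adjusted p = 5.42e-10 and 6.61e-10), and another probe of each rose by 1.69 and 1.59. Aif1l, an actin-binding protein, was undetected at 24 h and at least 2.42-fold higher at 72 h (adjusted p = 2.8e-09). Further rises were those of Sncg, gamma-synuclein (1.39), Slc23a3, a membrane transporter (1.36), Tnfrsf18, a TNF receptor family member (1.35), and Chmp4b, an ESCRT subunit (1.41). Chmp4b read 7.0, 7.42 and 6.56 against 8.04, 8.24, 8.93 and 8.90 and passed the test (adjusted p = 2.25e-04), yet its Dox 48 h minus Dox 24 h within 1 set was -0.64, so that the value within 1 set and the one across sets have opposite signs.

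Several lists gave few calls after quantile normalisation. None of 20 ribosomal protein genes passed (median -0.02), although 13 of them were called higher on the authors' values, 11 after those were centred and 3 under median scaling. Of 26 respiratory chain genes 3 rose and 2 fell, of 21 proteasome genes 2 rose, of 21 splicing genes 1 rose and 1 fell, and of 19 hypoxia and glycolysis genes 1 rose and 1 fell. Under median scaling, on the authors' values and after these were centred, 14, 19 and 19 of the respiratory chain genes were called higher. For proteasome genes it was 10, 14 and 11, for splicing genes 3, 6 and 5, and for hypoxia and glycolysis genes 8 each time. Of all 8271 genes 1981, 2345 and 1697 were called higher under these settings. Of 10 Notch pathway genes, 9 interferon-response genes and 8 desmosome genes 1 each rose. In each of these lists except the respiratory chain genes the share called after quantile normalisation is below the 14.8% of all genes.

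Few markers of other cells were measured. Of 14 fibroblast markers 4 were measured, none passed, Col6a1 and Thy1 were undetected on all 7 arrays, and their summed intensity was 87.1 to 105 at 24 h and 92.4 to 102 at 72 h. Of 9 melanocyte markers 4 were measured, with a sum of 123 to 149 against 111 to 127. Dct, a melanin enzyme, fell by 0.68 (adjusted p = 0.005) from 5.07, 5.54 and 5.40 to 4.61, 4.62, 4.70 and 4.80. The lowest detected signals on those 72 h arrays were 4.78, 4.74, 4.75 and 4.76, so Dct lay near or below detection there. The call of Tyrp1, another melanin enzyme (-0.46, adjusted p = 0.0265), was lost without Dox 24 h replicate 2 (-0.42, 0.0912), Dox 24 h replicate 3 (-0.40, 0.108) or Dox 72 h replicate 2 (-0.35, 0.157). The highest change among the melanocyte markers was 0.45, which did not pass. Of 16 leukocyte and Langerhans cell markers only H2-Ab1 was measured (-0.17, adjusted p = 0.519). Of 10 muscle and adipocyte markers 4 were measured, with a sum of 162 to 169 against 101 to 118, and Acta1, skeletal muscle actin, fell by 1.44 (adjusted p = 4.29e-07). Of 9 endothelial markers 2 were measured (sum 228 to 251 against 276 to 340), of 10 Merkel cell and neuronal markers 1 (43.7 to 63.2 against 68.5 to 83.2) and of 16 hair follicle and sebaceous markers 3 (527 to 571 against 513 to 621). Egfl7 of the endothelial list rose by 0.43 (adjusted p = 0.00936), while the other endothelial marker measured changed by -0.20 and did not pass. The call of Egfl7 held in 5 of 6 fits without 1 replicate. Stmn2, the measured neuronal marker, rose by 0.55 (adjusted p = 0.0341), which held in 1 of those 6 fits. The part of these markers in the other results was not tested.

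Untreated cultures changed over the same interval too. Of the 8271 genes 1540 (18.6%) differed between untreated 72 h and untreated 24 h, 742 (8.97%) higher and 798 (9.65%) lower. Of the 1225 genes called with Dox 633 were called in the same direction without it, which is 51.7% of the Dox calls and 41.1% of the untreated calls, and 20 were called in opposite directions. Across the 8271 genes the time changes with and without Dox correlated with Pearson's r of 0.60 and Spearman's rho of 0.51, a description only, since all 72 h arrays share 1 set and the untreated 24 h arrays share theirs with Dox 24 h replicate 1. The leading genes show this side by side: Klk6 changed by -2.43 with Dox and -2.15 without, H1f2 by -2.19 and -2.13, Psg18 by -2.17 and -2.09, Cdc20 by 1.24 and 1.43, and Ms4a10 by 2.52 and 2.38.

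**Figure D3:**
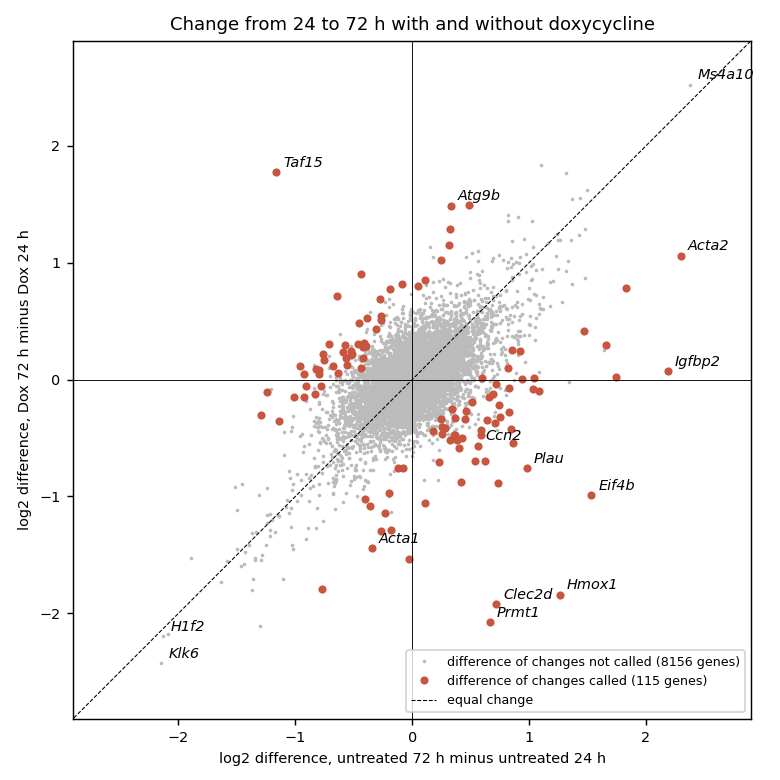
Change from 24 h to 72 h in Dox cultures against that in untreated cultures for 8271 genes, both as log2 differences, with the dashed line where both are equal. The 115 genes whose changes differed in the test are in red and the other 8156 in grey, and Klk6 and Ms4a10 lie near the line at opposite ends.

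The test of whether the change over time differs between Dox and untreated cultures called 115 genes (1.39%), 49 with the more positive change under Dox (0.592%) and 66 with the more negative one (0.798%). Of these, 33 had passed with Dox only, 54 without Dox only, 8 in both with the same direction and 20 in both with opposite directions. This count rests on a few arrays: it was 67 without untreated 24 h replicate 1, 66 without Dox 24 h replicate 2, 54 without untreated 72 h replicate 1 and 75 without Dox 72 h replicate 2. Untreated 24 h replicate 1 also stood apart in the difference between 2 probes of Actb, 0.91 against -4.12 and -3.39 in the other untreated 24 h arrays. The untreated 72 h arrays gave -2.41 to -1.71, which also lies outside the -3.71 to -2.83 of the 7 Dox arrays. With the array set as a fixed term 27 genes passed, but the Dox 24 h level in that fit rests on replicate 1 alone. It is the only Dox 24 h array in the set of the untreated 24 h arrays.

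Of the 24 named genes with a called difference, 12 passed under all 16 alternatives tried for them. The alternatives were each replicate left out in turn, the array set as a fixed or random term, a covariate for the Actb probes and the authors' values. Median scaling, cyclic loess and the other settings were not tried on these differences gene by gene. Of the 24, Hmox1, Eif4b and Krt18 were undetected at 72 h with Dox, Igfbp2 on every Dox array, Eif4b also in untreated cultures at 24 h and Taf15 in untreated cultures at 72 h. The differences given for these 5 genes are those of the measured signals, dim ones included, and their exact size is uncertain. Hmox1 fell with Dox (6.04, 5.95 and 6.24 to 4.22, 4.22, 4.34 and 4.22) and rose without it (5.00, 4.75 and 4.91 to 6.40, 6.35, 5.62 and 5.80), a measured difference of -3.10 (adjusted p = 2.57e-06). Prmt1, the main arginine methyltransferase, fell by 2.07 with Dox (SE 0.31, adjusted p = 2.82e-05), from 10.26, 10.52 and 10.62 to 8.94, 8.08, 8.18 and 8.15. Its untreated values were 10.54, 9.91 and 10.25 at 24 h and 10.80, 10.77, 11.03 and 11.19 at 72 h, and the difference was -2.74 (adjusted p = 8.57e-04). In both genes the Dox and untreated arrays are apart at 72 h, with Dox the lower. Both were named for large changes in these same data, and the share of all genes so separated was not counted.

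Clec2d, a C-type lectin that binds natural killer cell receptors, fell by 1.92 with Dox, from 6.98, 6.85 and 6.56 to 4.90, 4.68, 4.83 and 5.27, and its untreated change was 0.72 (difference -2.64, adjusted p = 1.06e-04). Eif4b, a translation initiation factor, was undetected at 72 h with Dox and at least 1.51-fold lower there. Without Dox its measured change was 1.53, from 4.31, 4.44 and 4.62 to 6.07, 5.73, 5.88 and 6.48 (difference -2.52, adjusted p = 3.89e-06). Taf15, an RNA-binding protein, moved the other way: it rose by 1.77 with Dox, from 4.21, 5.68 and 4.96 to 6.57, 6.80, 6.94 and 6.65, and its measured change without Dox was -1.16 (difference 2.94, adjusted p = 1.14e-04). Its Dox 48 h value lay only 0.14 above the 24 h arrays of its set.

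Plau and Pmaip1 fell with Dox, as given above, and rose without it by 0.98 and 0.73 (differences -1.74 and -1.61, adjusted p = 8.57e-04 and 3.6e-05). Acta2, smooth muscle actin, rose in both, from 8.88, 9.01 and 8.92 to 9.86, 10.14, 10.05 and 9.93 with Dox and from 9.36, 9.51 and 9.37 to 11.69, 11.86, 11.67 and 11.49 without, a difference of -1.24 (adjusted p = 1.06e-04). Its 3 dimmer probes gave differences of -1.22, -0.76 and -0.58 (adjusted p = 8.14e-06, 0.0909 and 0.198). Igfbp2, which binds insulin-like growth factors, was detected on no Dox array at either time. Untreated cultures read 4.68, 4.56 and 4.83 at 24 h and 6.74, 7.03, 6.87 and 6.84 at 72 h, a difference of -2.11 in the time changes (adjusted p = 2.12e-09). Slc35e3, a sugar nucleotide transporter family member, Ankk1, a kinase family member, and Lrrn4cl, a transmembrane protein, complete the 12, with differences of -1.30, -1.12 and -1.72.

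**Figure D4:**
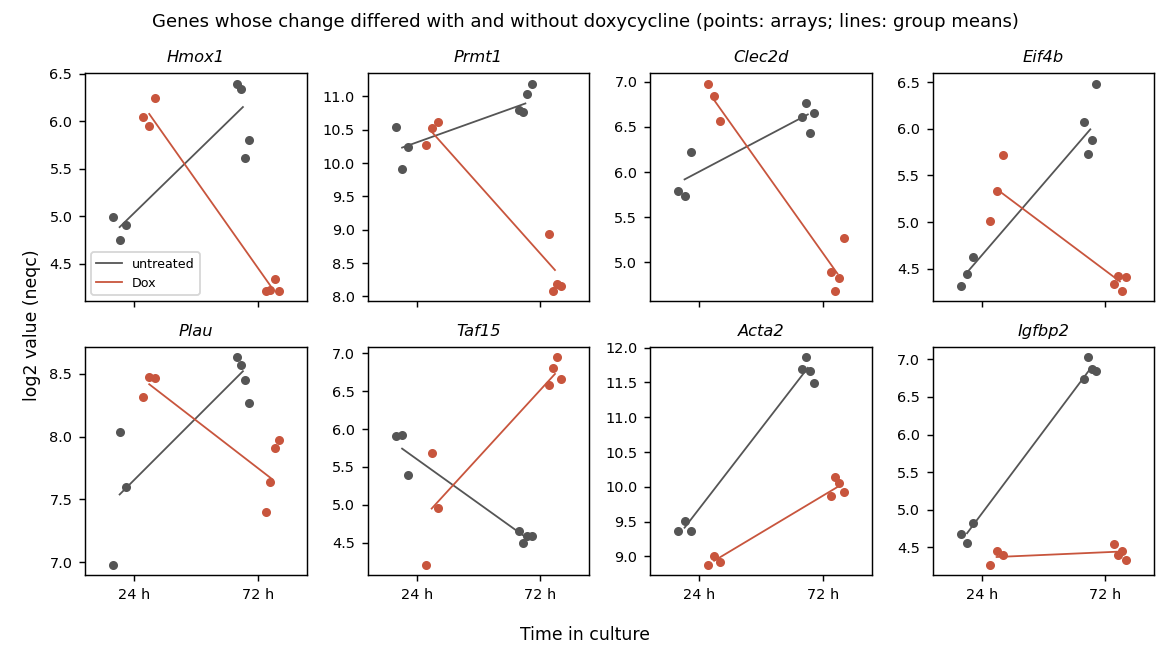
Normalised log2 intensity of 8 genes at 24 h and 72 h in untreated (grey) and Dox cultures (red), 1 point per array and lines between the group means. Hmox1, Prmt1, Clec2d, Eif4b, Plau, Acta2 and Igfbp2 end lower with Dox than without it, whereas Taf15 ends higher.

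The other 12 named differences did not hold under every alternative. Atg9b, the autophagy lipid scramblase, read 9.12, 8.98 and 8.82 at 24 h and 10.51, 10.35, 10.55 and 10.50 at 72 h with Dox (1.49, adjusted p = 7.73e-09) against an untreated change of 0.33. Its difference of 1.16 passed under 15 of the 16 alternatives, and with the array set as a fixed term its adjusted p was 0.0528. Gsdmc2, a pore-forming gasdermin, rose by 1.29 with Dox against 0.32 without, Ccn2, a matricellular growth factor, differed by -1.13, Cxcl1 by -0.84 and Krt18 by -0.93, each in 15 of 16 alternatives. Fxyd4, a regulator of the sodium pump, rose by 1.49 with Dox, and its difference of 1.01 was not called without untreated 24 h replicate 1 (0.95, adjusted p = 0.0519) or without untreated 72 h replicate 1 (0.94, adjusted p = 0.0554). The differences of Itga2, Cxcl12, Tnc and Sprr1a passed under 10, 6, 6 and 4 of the 16 alternatives, and those of Acta1 and Tslp under 14 and 13.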

How the data were processed

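The labels give total RNA extracted with Trizol and Illumina bead arrays of 25697 probes. Of the deposited tables, the first gives each probe's intensity without normalization, per the file headers, and a detection p-value beside it, also deposited by the authors. The second holds log2 values deposited by the authors, normalized by a method that no source names. Their distributions are identical within and different between 4 groups of arrays, called sets here.

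In R 4.3.3, neqc of limma 3.58.1 was run for background correction and quantile normalization (offset 16, background from the detection p-values). A probe stayed in if 2 or more of the 29 arrays had a detection p under 0.01, which left 11794 and removed 13903. A symbol is known for 11090 of them, and these represent 8271 genes, each by its brightest probe (2066 genes have others). Where called genes had several kept probes, 412 of 490 further probes (84.1%) had the same sign. About 34 to 38% of probes were detected, so genes near background are measured poorly, and the number of arrays limits the precision.

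The letter C arrays at 72 h entered as averages. A single limma fit held 10 group means over 27 replicates, with 17 residual and 8.19 prior degrees of freedom. Contrasts were Dox 72 h minus 24 h, untreated 72 h minus 24 h, and their difference. Benjamini-Hochberg adjustment of the p-values ran over the kept probes, and the threshold was 0.05. Nothing says that replicates are separate cultures, so p-values reflect the spread of these samples alone, which may be technical. Whether the letters pair the samples is not known, and apart from the averaging of the C arrays the main fit did not use them.

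Named by rule were Fos, Mmp10 and S100a7a, the 15 genes with the largest rise and the 15 with the largest fall that passed without overlap and detected throughout at least 1 group, up to 4 members of each of 45 lists by adjusted p, and the 10 differences with the smallest adjusted p. Other list members were named after their values were seen, to account for the lists. The members and lists were chosen with earlier results of these data known. Of 771 list members 522 were measured. For a gene undetected throughout a Dox group the fold between the times is given as a bound, while differences between time changes are those of the measured signals.

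Alternatives covered normalization, background, the authors' values, the detection filter, choice of probe, a fold minimum, letter C, array weights, array sets, an Actb probe covariate and each replicate left out. Those on list members and the median over kept probes were added after the data were seen. The procedure was tested on simulated arrays. Promoters are those of RefSeq.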

Additional observations from a re-analysis of the deposited data

Results flagged for a closer look

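The change from 24 h to 72 h differed between Dox and untreated cultures, by the limma contrast of both time changes, for the following genes described above (values are the Dox change minus the untreated change on the log2 scale, adjusted p after each). None of these differences was examined for its cause. Lower at 72 h with Dox and higher without it, with both changes called, were Hmox1 at -3.10 (2.57e-06), Eif4b at -2.52 (3.89e-06), Plau at -1.74 (8.57e-04), Pmaip1 at -1.61 (3.6e-05), Slc35e3 at -1.30 (4.87e-05), Ccn2 at -1.13 (0.00197) and Cxcl1 at -0.84 (0.00165). Called lower with Dox beside an untreated change that did not pass were Prmt1 at -2.74 (8.57e-04), Clec2d at -2.64 (1.06e-04), Tslp at -1.16 (0.0155) and Krt18 at -0.93 (0.0112). Hmox1, Eif4b, Krt18, Igfbp2 and Taf15 were each undetected throughout at least 1 of the 4 groups, so the exact size of their differences is uncertain.

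More negative with Dox and of the same sign in both were Acta2 at -1.24 (1.06e-04), Acta1 at -1.10 (0.0112), Itga2 at -1.02 (0.0202), Cxcl12 at -0.77 (0.0377), Sprr1a at -0.72 (0.039) and Tnc at -0.63 (0.0286). Igfbp2 differed by -2.11 (2.12e-09), Lrrn4cl by -1.72 (1.79e-04) and Ankk1 by -1.12 (8.62e-05), each with a called rise in untreated cultures beside Dox changes of 0.07, 0.02 and -0.08 that did not pass. More positive with Dox were Taf15 at 2.94 (1.14e-04), Atg9b at 1.16 (8.57e-04), Fxyd4 at 1.01 (0.014) and Gsdmc2 at 0.97 (0.0017).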

How the results depend on the processing

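Time and array set cannot be told apart here, and genes near background are measured poorly. The 1225 calls became 2149 under median scaling, 2586 on the authors' values, 3444 on the authors' values centred over the kept probes and 105 with a 2-fold minimum, and 850 to 1074 without 1 replicate. The 1540 untreated calls became 120 with a 2-fold minimum and 1115 to 1319 without 1 replicate. The 115 differences became 187, 218, 481 and 40 under those 4 settings, 186 with array weights, 192 with the Actb covariate, 27 with the set as a fixed term, and 54 to 135 without 1 replicate. Other settings moved no count by over 1.5 times. They include the set as a random block (957, 1204 and 99).

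Arrays of 1 letter at both times had deviations that correlated at 0.165, -0.0327 and 0.132 with Dox, and arrays of different letters at -0.202 to 0.0826. Without Dox the same letters gave -0.135, 0.0508 and -0.0333. With 3 replicates these values cannot settle whether the letters pair the samples. A replicate block gave 1245, 1529 and 114 calls. Some small changes turned sign. Under median scaling these were Fen1 (0.0183), Srsf1 (0.0031) and Ankk1 (0.216), and under cyclic loess Fos (-1e-04), Igfbp2 (-0.10) and Lrrn4cl (-0.0114). On the authors' values they were Lamb3 (0.0057), Krt10 (0.0326), Serpinb2 (0.0179), Cxcl16 (0.0676), Fen1 (0.122), Hk2 (0.0722), Srsf1 (0.121), Igfbp2 (-0.0271) and Ankk1 (0.0618). With the kept-probe median they were Igfbp2 (-0.23) and Lrrn4cl (-0.0685), and with the centred authors' values Fen1 (0.0244), Srsf1 (0.0236), Igfbp2 (-0.124) and Lrrn4cl (-0.0786). Without 1 replicate Fos ran from -0.0997 to 0.191 and Lrrn4cl from -0.148 to 0.175. The cause was not tested.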

Other observations

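The calls in the smaller lists not described above were as follows. Of 13 heat shock chaperones 1 rose and 2 fell. Cryab, a small heat shock protein, read 6.75, 7.09 and 6.84 at 24 h and 7.17, 7.77, 7.67 and 7.82 at 72 h (0.67, adjusted p = 0.00492), and Hspa1a, an inducible chaperone, fell by 0.73 (adjusted p = 1.12e-04). Of 14 genes of the unfolded protein response 3 fell and none rose, with a median of -0.15 that became 0.08 under median scaling. Dnajb9, a chaperone of the endoplasmic reticulum, fell by 0.65 (adjusted p = 4.68e-04), a call lost under median scaling (-0.33, 0.0722) and on the authors' values (-0.14, 0.117). Of 17 extracellular matrix and TGF-beta genes, Fbln1, a matrix glycoprotein, rose by 0.73 (adjusted p = 0.005) and 1 fell. Of 11 contractile genes 2 rose and none fell, of 9 matricellular genes 2 fell, of 7 insulin-like growth factor genes 1 fell and of 13 circadian clock genes 1 fell. The shares called in the extracellular matrix, insulin-like growth factor and clock lists are below the 14.8% of all genes. Those in the heat shock, unfolded protein response, contractile and matricellular lists are above it.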
